A study of Mus musculus with 12 samples.

Results

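Genes of the endoplasmic reticulum (ER) that fold, modify and move secretory proteins were followed in cultured mouse embryonic fibroblasts (MEFs), the matrix-making connective tissue cells of the embryo, given mTOR inhibitors for 24 h. The set held 33 genes of the 49315 in the count tables, chosen by function but with earlier results of these data known. It held 11 chaperones and co-chaperones, 7 oxidoreductases and 3 genes of a sensor group. It also held 6 genes of the translocon, signal peptidase and oligosaccharyltransferase, and 6 of ER-associated degradation (ERAD). The sensor group is Ern1, Atf6 and Xbp1, of which Xbp1 encodes a transcription factor and not a sensor. All 33 were among the 15917 genes with enough counts to be tested. The 4 groups had 3 libraries each: the solvent DMSO, 20 ng/ml rapamycin, 250 nM Torin1 and 10 nM RapaLink-1. Rapamycin acts on mTOR complex 1 through the protein FKBP12, Torin1 competes with ATP at the mTOR kinase, and RapaLink-1 is a rapamycin molecule tethered to a kinase-site inhibitor of mTOR. The doses differ between the compounds, so every comparison holds for these doses. The labels give all groups the same description apart from the compound, and do not say whether cells for a group's 3 libraries were cultured separately. The p-values therefore measure the spread between these libraries, which may be technical.

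Proteins that enter the ER are threaded through the Sec61 channel, lose their signal peptide, receive N-linked glycans and fold with the help of chaperones and of enzymes that form disulfide bonds. When unfolded proteins accumulate, the sensors IRE1 (encoded by Ern1), ATF6 and PERK (Eif2ak3) start the unfolded protein response, in which IRE1 splices the Xbp1 message and the factors XBP1, ATF6 and ATF4 raise chaperone, ERAD and stress genes. Fibroblasts secrete collagen and other matrix proteins and so carry a large ER load. Counts per gene do not measure Xbp1 splicing or the cleavage of ATF6.

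Total counts were 30075870 to 39423703 per library. Of 11 fibroblast markers, 9 were detected at 46.2 CPM (counts scaled by library size and TMM factor) or more in every library, while Lum and Fap stayed at or below 1.42 and 0.447 CPM. The detected markers were not all level across the libraries. Dcn ran from 46.2 to 138 CPM, Col3a1 from 224 to 559 and Pdgfrb only from 314 to 352. The summed level of 5 endothelial markers was 1.04 to 1.73 CPM with DMSO, 1.47 to 2.21 with rapamycin and 3.57 to 4.15 with Torin1 or RapaLink-1. Leukocyte markers summed to 2.19 to 4.15 CPM, epithelial markers to at most 1.25 and muscle markers to at most 0.439, with Myod1, Myog and Ckm at 0 in all 12 libraries. The 5 neural markers summed to more, between 90.1 and 93.7 CPM in the DMSO libraries, between 73.0 and 80.4 in those with rapamycin, between 84.8 and 89.0 for Torin1 and between 74.9 and 77.4 for RapaLink-1. Most of that was Map2, a microtubule protein gene at 61.4 to 84.9 CPM, while Sox2 and Rbfox3 were at 0 in 11 libraries each and Gfap stayed at or below 0.256 CPM. Tubb3, a neuronal tubulin gene, fell from 13.4 to 17.7 CPM with DMSO by 0.51 ± 0.076 with rapamycin, 2.15 ± 0.097 with Torin1 and 2.25 ± 0.098 with RapaLink-1 on the log2 scale. Map2, the other neural marker with enough counts to be tested, changed less and not in 1 direction. Its values were -0.22 with rapamycin, 0.14 with Torin1 and -0.06 with RapaLink-1. The part of these markers in the results was not tested. In such bulk libraries, fewer cells of a type and less RNA per cell cannot be told apart.

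Promoters were searched for the cis elements through which ATF6 and XBP1 are known to act, a feature read from sequence and not from expression. The members were chosen by function and include genes that these factors are known to raise. Their share of matches, set beside that of all genes, is therefore not an independent test. The ER stress response element (ERSE, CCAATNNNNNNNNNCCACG) and ERSE-II (ATTGGNCCACG) were searched on both strands of RefSeq promoter windows (GRCm38.p6) running from 250 bases before to 50 after each gene's start. A window was found for 26 of the 33 genes and for none of Hyou1, Manf, Atf6, Sec61a1, Sec11c, Ostc and Derl1. An ERSE stood in 8 of the 26 (30.8%), against 0.137% of 27025 genes with a window, and an ERSE-II in 2 (7.69%), against 0.0444%. Windows of 7 members (26.9%) held an ERSE with 1 mismatch in its last 5 bases, against 1.02% of all genes. The XBP1 motif TGACGTGG was in 1 (Txndc5; 0.714% of all genes) and the ATF4 motif TGATGNAA in 2 (Txndc5 and Herpud1; 4.51%). Of the chaperones and co-chaperones, 7 of 9 windows held an ERSE or ERSE-II, as did 1 of 7 oxidoreductase windows, 2 of 5 ERAD windows, and none of the 2 sensor or 3 translocon windows. A match describes the letters only, and its absence says nothing of a factor's binding.

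The stretches below carry these matches for genes whose levels are described next, each read 5′ to 3′ on the gene's strand and ending before its start. Capitals mark the fixed letters of the ERSE, CCAAT and CCACG or, read on the other strand, CGTGG and ATTGG. The positions are chr2:34772010-34772058 (plus strand), chr10:86705518-86705671 (minus, with 2 matches), chr8:84847060-84847108 (minus), chr11:50325785-50325833 (minus), chr14:118937812-118937860 (plus), chr15:88819505-88819553 (plus), chr12:17266476-17266524 (plus) and chr19:6046517-6046565 (plus). The last line is the ERSE-II of Herpud1, at chr8:94386362-94386402 (plus).
Hspa5: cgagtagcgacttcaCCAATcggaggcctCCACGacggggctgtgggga
Hsp90b1: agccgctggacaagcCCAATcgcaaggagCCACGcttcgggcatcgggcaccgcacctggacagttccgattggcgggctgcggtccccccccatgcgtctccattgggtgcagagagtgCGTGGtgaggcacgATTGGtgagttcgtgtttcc
Calr: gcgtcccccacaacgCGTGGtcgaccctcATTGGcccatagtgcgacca
Canx: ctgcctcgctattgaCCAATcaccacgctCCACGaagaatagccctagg
Dnajc3: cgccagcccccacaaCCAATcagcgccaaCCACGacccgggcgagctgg
Creld2: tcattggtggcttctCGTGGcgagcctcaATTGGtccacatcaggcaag
Pdia6: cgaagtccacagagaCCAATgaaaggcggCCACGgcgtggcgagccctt
Syvn1: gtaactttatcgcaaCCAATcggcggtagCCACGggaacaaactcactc
Herpud1: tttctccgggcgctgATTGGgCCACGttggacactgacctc
The ERSE-II of Dnajb11 lies after the start, between bases 8 and 18, and is not printed. In Hspa5 the match ends 47 bases before the start, in Syvn1 26 bases before it and in Canx 127 bases before it, so the spacing from the start varied among the members.

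Most of the ER genes were lower with rapamycin than with DMSO, and nearly all were lower with Torin1 and RapaLink-1. The median fall was much larger with Torin1 and RapaLink-1 than with rapamycin. A gene is said to have risen or fallen when its adjusted p was under 0.05 by the quasi-likelihood test of edgeR, with the Benjamini-Hochberg method applied over all 15917 genes. Levels and changes are relative to the other RNAs of each library and do not measure RNA per cell. With rapamycin 27 of 33 fell and 2 rose, while 32.2% of all tested genes fell and 27.5% rose. With Torin1 31 fell and 2 rose (38.3% and 39.8% of all genes), and with RapaLink-1 29 fell and 2 rose (37.9% and 38.7%). The median log2 fold change of the 33 was -0.23 with rapamycin, -0.72 with Torin1 and -0.72 with RapaLink-1, beside 0.00, 0.04 and 0.03 over all genes. At least 2-fold falls were met by 0 members with rapamycin (0.528% of all genes), 10 with Torin1 (6.35%) and 8 with RapaLink-1 (5.77%). The 3 comparisons share their DMSO libraries. The members were chosen with earlier results of these data known, so their contrast with all genes is not an independent test. Libraries of the 2 groups did not overlap for 29 members with rapamycin (63.0% of all genes), 33 with Torin1 (78.5%) and 31 with RapaLink-1 (77.6%).

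The share of all counts that the 33 genes took fell in the same order. It lay between 1.22% and 1.23% in the DMSO libraries, between 1.02% and 1.03% in those with rapamycin, between 0.617% and 0.627% for Torin1 and between 0.668% and 0.671% for RapaLink-1, so that no 2 groups overlapped. The 11 chaperones and co-chaperones alone took 0.704% ± 0.0025 (SD, n = 3), 0.547% ± 0.0046, 0.298% ± 0.0030 and 0.328% ± 0.0013 in the same order.

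Upper-quartile scaling, which sets libraries by their upper counts, moved the median of all tested genes against DMSO up by 0.06 with rapamycin, 0.13 with Torin1 and 0.14 with RapaLink-1. Over all genes it turned 4381 rises and 5127 falls with rapamycin into 5481 and 4061, and 6165 and 6036 with RapaLink-1 into 7629 and 4823. Among the 33 it left 22 falls and 3 rises with rapamycin, 28 and 2 with Torin1, and 28 and 4 with RapaLink-1, and the falls of at least 2-fold went from 10 to 7 and from 8 to 7. Small changes below are named where this turns them.

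**Figure D1:**
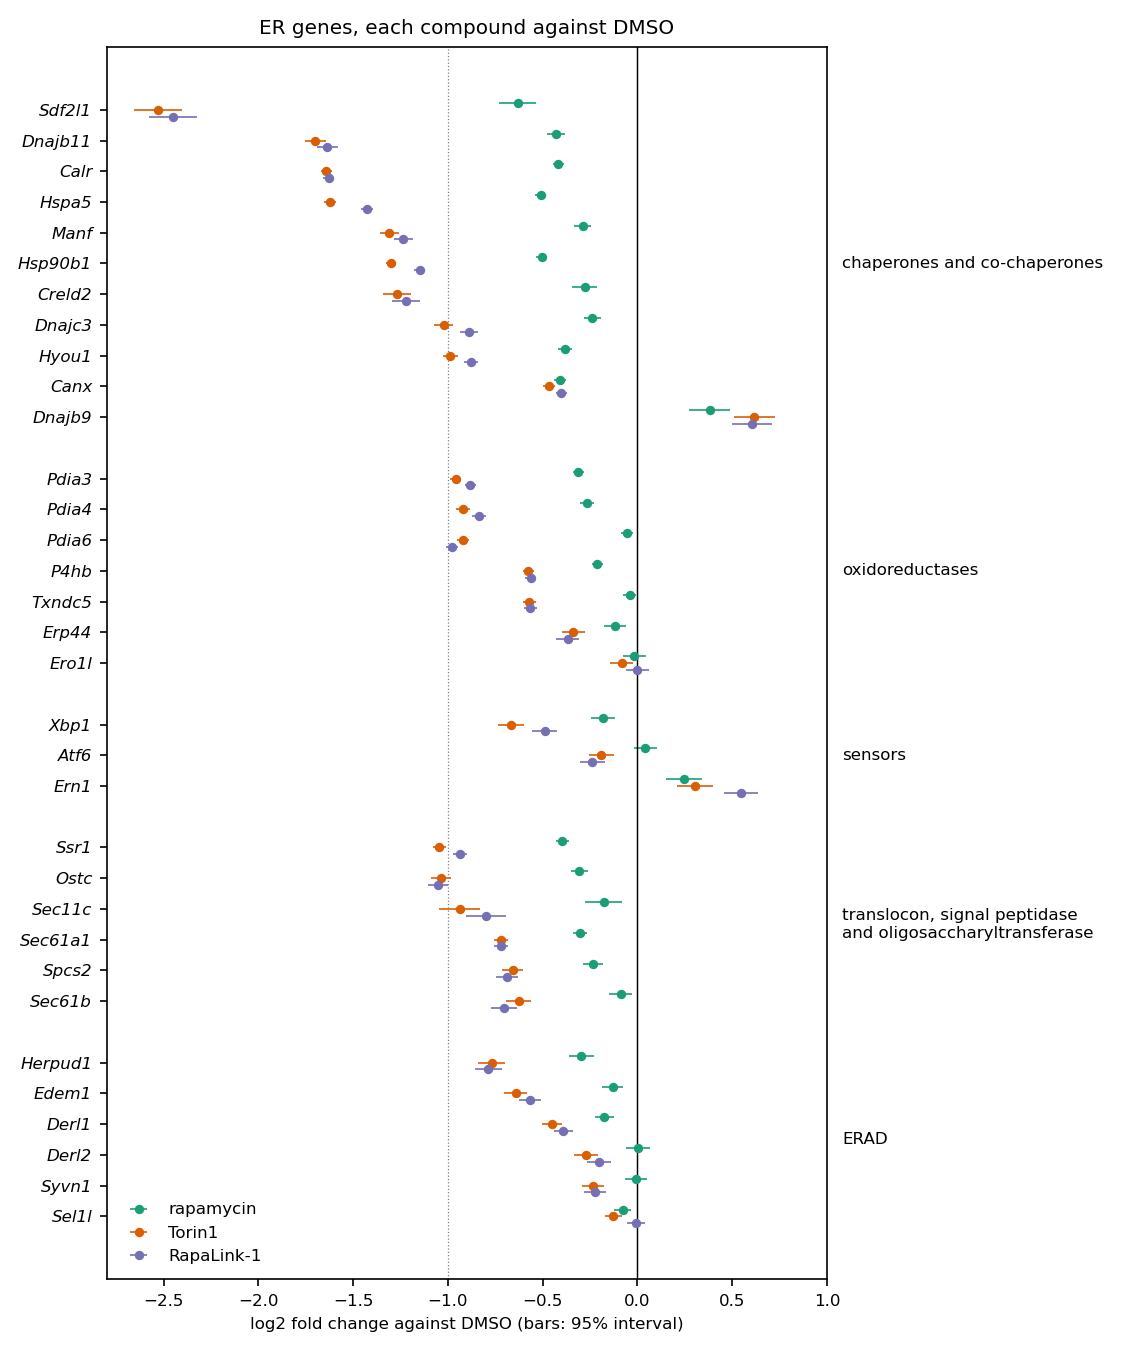
Log2 fold change (x axis) of the 33 ER genes (y axis, by role) with each compound against DMSO, with 3 libraries a group. The 95% intervals per gene come from the fit of all 12 libraries, with a spread moderated over all genes. Rapamycin values lie between -0.63 and 0.38, while Torin1 and RapaLink-1 values reach -2.53 and -2.45 for Sdf2l1; Dnajb9 and Ern1 lie to the right of 0 with all 3 compounds, and the values of Pdia6, Txndc5, Syvn1 and Ero1l with rapamycin, of Ero1l with Torin1 and of Sel1l with RapaLink-1 changed sign with upper-quartile scaling.

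Chaperones and co-chaperones changed the most: 10 of 11 fell with each compound and 1 rose, with medians of -0.41 (rapamycin), -1.30 (Torin1) and -1.22 (RapaLink-1). For this and each role below, the shares of all tested genes that fell were 32.2% with rapamycin, 38.3% with Torin1 and 37.9% with RapaLink-1. The shares that rose were 27.5%, 39.8% and 38.7%. Hspa5, which encodes BiP, the ER's HSP70 chaperone and the protein that holds the sensors inactive, stood at 1419, 1427 and 1426 CPM with DMSO. It was at 1006, 999.6 and 995 CPM with rapamycin, 470.0, 462 and 456 with Torin1 and 525, 531 and 533 with RapaLink-1. The groups were fully separated, and the level was 70.2% of the DMSO level with rapamycin (log2 -0.51 ± 0.014, SE), 32.5% with Torin1 (-1.62 ± 0.015) and 37.2% with RapaLink-1 (-1.43 ± 0.015).

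Hsp90b1, which encodes the ER's HSP90 chaperone GRP94, followed the same order at a higher count. Its libraries read 2125, 2107 and 2108 CPM with DMSO, 1493, 1496 and 1476 with rapamycin, 864, 859.6 and 850.5 with Torin1 and 950.0, 955 and 952 with RapaLink-1. The falls were 0.51 ± 0.014, 1.30 ± 0.014 and 1.15 ± 0.014 on the log2 scale, but 15.7% of its exonic bases overlap other genes (10.3% of its exonic bases overlap the opposite-strand pseudogene 1810014B01Rik), and the strand setting of the counting is not given, so reads of that locus may be shared.

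Of the lectin chaperones, which hold newly glycosylated proteins, calreticulin and calnexin parted. Calr stood at 1961, 1970.4 and 1965 CPM with DMSO, 1488, 1473 and 1455 with rapamycin, 638, 637 and 615 with Torin1 and 631, 639.8 and 635 with RapaLink-1. It fell by 0.42 ± 0.014 with rapamycin on the log2 scale and by 1.64 ± 0.015 and 1.63 ± 0.015 with the other two. Canx, its membrane-bound relative, went from 908, 916 and 889 CPM to 671, 699.6 and 675 with rapamycin, 645, 668 and 649 with Torin1 and 681, 685 and 688 with RapaLink-1. Its falls of 0.41 ± 0.015, 0.47 ± 0.016 and 0.40 ± 0.015 were alike in size, and against rapamycin it differed by -0.06 ± 0.016 with Torin1 (edgeR adjusted p = 0.000449) and by 0.01 ± 0.016 with RapaLink-1 (edgeR adjusted p = 0.708, 95% interval -0.02 to 0.04). Upper-quartile scaling turned that difference with Torin1 to 0.00 (edgeR adjusted p = 0.811) and raised that with RapaLink-1 to 0.08 (edgeR adjusted p = 1.719e-06). Both genes hold an ERSE in the windows printed above.

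Sdf2l1, a small ER protein that works with J-domain co-chaperones, had the largest fall of the set in each of the 3 comparisons with DMSO. Its level was 29.1, 30.7 and 29.9 CPM with DMSO, 20.0, 18.7 and 19.1 with rapamycin, 5.73, 4.42 and 5.42 with Torin1 and 5.36, 5.59 and 5.45 with RapaLink-1. That left 17.3% of the DMSO level with Torin1 (log2 -2.53 ± 0.065) and 18.3% with RapaLink-1 (-2.45 ± 0.064), with at least 156 counts in every library. Its promoter window held neither an ERSE nor an ERSE-II.

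The BiP co-chaperones divided by direction. Dnajb11 (ERdj3), which hands unfolded proteins to BiP, stood at 139.8, 142 and 143 CPM with DMSO, 104, 104 and 107 with rapamycin, 42.3, 44.0 and 44.0 with Torin1 and 47.3, 45.2 and 44.0 with RapaLink-1. It fell by 0.43 ± 0.024, 1.70 ± 0.028 and 1.64 ± 0.028. Dnajc3 (p58IPK), another J-domain protein, fell by 0.24 ± 0.023, 1.02 ± 0.025 and 0.89 ± 0.025 with rapamycin, Torin1 and RapaLink-1. Hyou1 (GRP170), a nucleotide exchange factor of BiP, fell by 0.38 ± 0.018, 0.99 ± 0.019 and 0.88 ± 0.019 in the same order. Dnajb9 (ERdj4), a J-domain protein that binds BiP and serves ERAD and IRE1 control, was the only chaperone gene of the 11 that rose. It went from 15.2, 13.7 and 14.1 CPM with DMSO to 17.8, 19.5 and 18.8 with rapamycin, 21.4, 22.8 and 21.7 with Torin1 and 20.9, 21.4 and 23.0 with RapaLink-1. Every treated library lay above every DMSO library, with rises of 0.38 ± 0.056, 0.62 ± 0.054 and 0.61 ± 0.054.

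Manf and Creld2, ER proteins that stress is known to induce and that are also secreted, fell alike. Manf stood at 150.3 to 151 CPM with DMSO and fell by 0.29 ± 0.023, 1.31 ± 0.026 and 1.24 ± 0.025 with rapamycin, Torin1 and RapaLink-1. For Manf, 9.25% of exonic bases overlap other genes. Creld2 stood at 68.1 to 70.5 CPM and fell by 0.28 ± 0.033, 1.27 ± 0.038 and 1.22 ± 0.037.

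**Figure D2:**
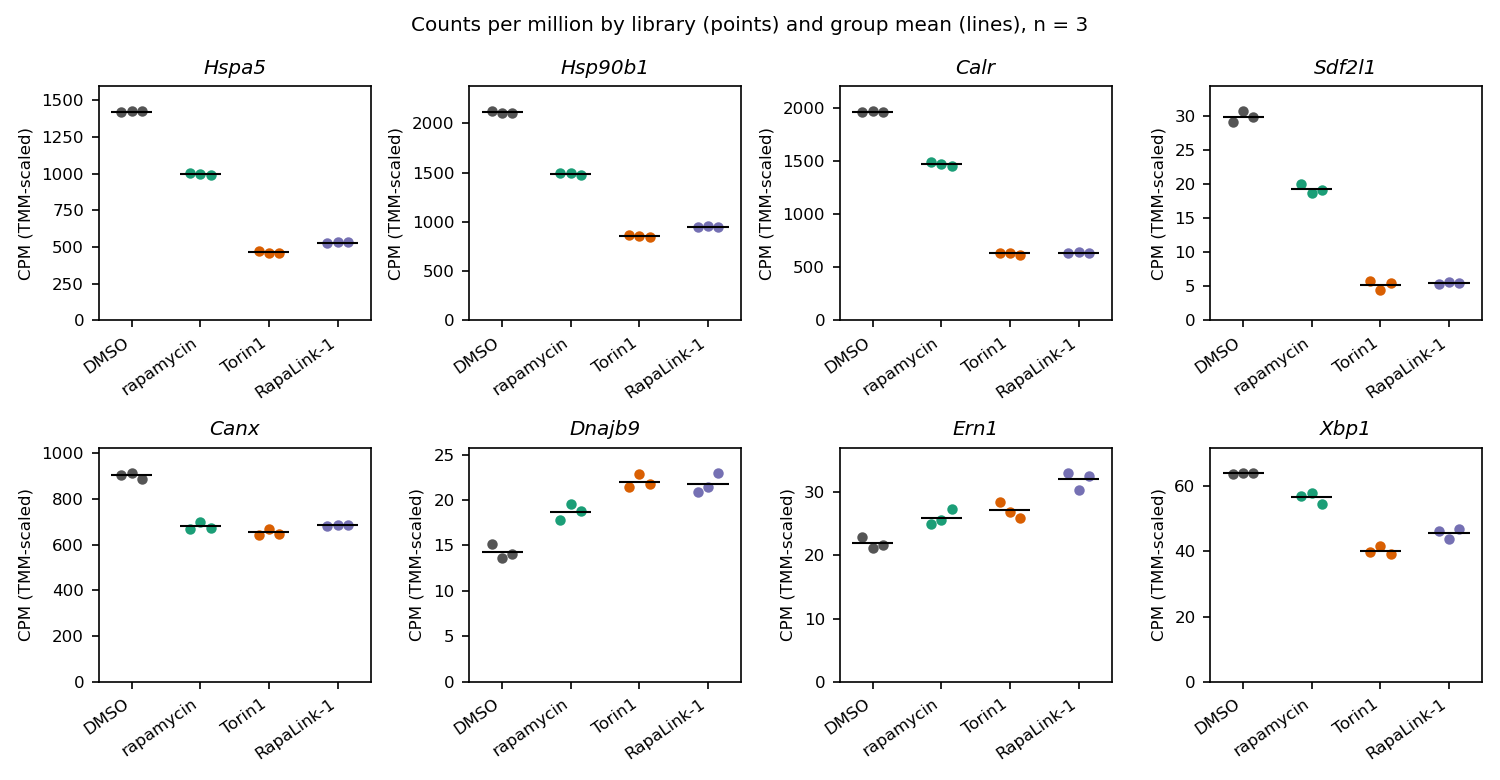
TMM-scaled CPM (y axis, from 0) of 8 ER genes in each library (points) and the group mean (line), with 3 libraries a group. Hspa5, Hsp90b1, Calr and Sdf2l1 step down from DMSO to rapamycin and again to the other compounds, Canx steps down once, Xbp1 is lowest with Torin1, and Dnajb9 and Ern1 are higher with all 3 compounds than with DMSO.

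The oxidoreductases, which form and rearrange disulfide bonds, moved less with rapamycin (6 of 7 fell, median -0.12) and all 7 fell with Torin1 (median -0.58), while 6 fell with RapaLink-1 (median -0.56). Pdia3, the disulfide isomerase that works with the lectin chaperones, stood at 1095, 1089.7 and 1096 CPM with DMSO. It was at 887, 882 and 876 CPM with rapamycin, 566, 566 and 554 with Torin1 and 597, 585 and 598 with RapaLink-1, falls of 0.31 ± 0.015, 0.96 ± 0.015 and 0.88 ± 0.015. Pdia4, another isomerase, was similar, with falls of 0.27 ± 0.018, 0.92 ± 0.019 and 0.84 ± 0.019.

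Pdia6, an isomerase that also binds BiP, was hardly lower with rapamycin yet fell as far as Pdia3 with the other compounds. Its libraries read 669, 666 and 665 CPM with DMSO and 651, 639 and 636 with rapamycin. With Torin1 they read 356, 353 and 350.3 CPM and with RapaLink-1 344, 336 and 335, falls of 0.92 ± 0.016 and 0.98 ± 0.016. The fall of 0.05 ± 0.016 with rapamycin became a difference of 0.01 (edgeR adjusted p = 0.683) with upper-quartile scaling and 0.00 (edgeR adjusted p = 0.854) when only genes with a mean of 5 CPM were kept.

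P4hb, the founding protein disulfide isomerase, fell by 0.21 ± 0.015, 0.58 ± 0.015 and 0.56 ± 0.015 from 1044 to 1046 CPM. Txndc5, a thioredoxin-domain isomerase, fell by 0.57 ± 0.017 with Torin1 and 0.56 ± 0.017 with RapaLink-1. Its fall of 0.04 ± 0.017 with rapamycin (edgeR adjusted p = 0.0272) was not called without DMSO replicate 1 or 3 or rapamycin replicate 2 (edgeR adjusted p = 0.0555, 0.0695 and 0.0798), and turned to 0.02 with upper-quartile scaling (edgeR adjusted p = 0.266). Erp44, which retains client proteins and Ero1 in the early secretory pathway, fell by 0.12 ± 0.030, 0.34 ± 0.031 and 0.37 ± 0.031, the first of these not called with upper-quartile scaling (-0.06, edgeR adjusted p = 0.0921).

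Ero1l, the oxidase that recharges the isomerases, was nearly level across the 4 groups. It stood at 65.6, 65.8 and 64.6 CPM with DMSO, 64.5, 66.1 and 63.6 with rapamycin, 63.1, 62.4 and 59.8 with Torin1 and 68.0, 64.0 and 64.3 with RapaLink-1. The Torin1 libraries were the lowest, by 0.08 ± 0.031 (edgeR adjusted p = 0.0103), but this was not called without Torin1 replicate 3 (-0.07, edgeR adjusted p = 0.0677) and turned to 0.04 with upper-quartile scaling. The differences with rapamycin (-0.02 ± 0.030, 95% interval -0.08 to 0.04) and RapaLink-1 (0.00 ± 0.030, 95% interval -0.06 to 0.06) were not called, the latter becoming a rise of 0.14 with upper-quartile scaling.

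The 3 genes of the sensor group, Ern1, Atf6 and the transcription factor gene Xbp1, did not move together. The gene of the sensor PERK, Eif2ak3, is described with the other stress branch genes. Ern1, which encodes IRE1, rose from 22.9, 21.1 and 21.6 CPM with DMSO to 24.9, 25.6 and 27.2 with rapamycin, 28.4, 26.9 and 25.9 with Torin1 and 33.1, 30.3 and 32.6 with RapaLink-1. The rises were 0.25 ± 0.047, 0.30 ± 0.047 and 0.55 ± 0.046, and the RapaLink-1 libraries lay above all others. Xbp1, whose message IRE1 splices, fell from 63.7, 64.2 and 64.0 CPM to 56.9, 58.0 and 54.7 with rapamycin, 39.9, 41.6 and 39.3 with Torin1 and 46.1, 43.8 and 46.8 with RapaLink-1. These falls were 0.18 ± 0.032, 0.67 ± 0.034 and 0.49 ± 0.033, so the gene of the enzyme was higher and that of its substrate lower in the same libraries. Atf6 stood at 60.8, 58.9 and 58.9 CPM with DMSO and 59.5, 63.4 and 61.2 with rapamycin, a difference of 0.04 ± 0.032 that was not called but was called a rise with upper-quartile scaling (0.11, edgeR adjusted p = 0.002407). It fell by 0.19 ± 0.033 with Torin1, not called with upper-quartile scaling (-0.06, edgeR adjusted p = 0.0667), and by 0.24 ± 0.033 with RapaLink-1.

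All 6 genes of the translocon, signal peptidase and oligosaccharyltransferase fell with each compound, with medians of -0.27 (rapamycin), -0.83 (Torin1) and -0.76 (RapaLink-1). Ssr1, a subunit of the translocon-associated protein complex, stood at 417, 417 and 408 CPM with DMSO. It was at 313, 315 and 315 CPM with rapamycin, 202, 203 and 197 with Torin1 and 218, 215 and 216 with RapaLink-1, falls of 0.40 ± 0.017, 1.05 ± 0.018 and 0.94 ± 0.018. Ostc, an oligosaccharyltransferase subunit at the translocon, fell by 0.31 ± 0.024, 1.04 ± 0.026 and 1.05 ± 0.026 from 140.1 to 144 CPM.

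Sec61a1, the pore-forming subunit of the Sec61 channel, fell by 0.30 ± 0.018, 0.72 ± 0.018 and 0.72 ± 0.018 from 339 to 344 CPM; 8.16% of its exonic bases overlap other genes. Sec61b, the channel's small beta subunit, fell by 0.63 ± 0.034 with Torin1 and 0.70 ± 0.034 with RapaLink-1. Its fall of 0.09 ± 0.031 with rapamycin was not called without DMSO replicate 3 or rapamycin replicate 3 (-0.06 each, edgeR adjusted p = 0.128 for both) or with upper-quartile scaling (-0.03, edgeR adjusted p = 0.501). Gm10320, a near copy, shares 474 aligned bases with Sec61b at 98.3% identity, so the count of Sec61b is uncertain.

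For the signal peptidase, Sec11c, a catalytic subunit, fell by 0.18 ± 0.049, 0.94 ± 0.054 and 0.80 ± 0.053 from 23.2 to 24.8 CPM, and Spcs2, an accessory subunit, by 0.23 ± 0.027, 0.66 ± 0.028 and 0.69 ± 0.028 from 94.4 to 98.6 CPM. Spcs2 has a pseudogene copy (Spcs2-ps, 95.8% identical over 683 bases) that may share reads.

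ERAD genes showed the smallest medians next to the sensor group, -0.10 with rapamycin, -0.36 with Torin1 and -0.31 with RapaLink-1, with 4, 6 and 5 of 6 falling. Herpud1, a membrane protein that assembles the degradation complex, stood at 57.1, 59.6 and 59.0 CPM with DMSO, 49.4, 44.8 and 48.6 with rapamycin, 35.3, 34.4 and 33.6 with Torin1 and 35.5, 33.6 and 33.0 with RapaLink-1. It had the largest falls of the 6, 0.30 ± 0.034, 0.77 ± 0.036 and 0.79 ± 0.036. Edem1, which marks misfolded glycoproteins for degradation, fell by 0.13 ± 0.028, 0.64 ± 0.030 and 0.57 ± 0.030, and Derl1, a channel protein of the complex, by 0.18 ± 0.025, 0.45 ± 0.026 and 0.39 ± 0.026. Derl1 has a pseudogene copy, Gm35638, 95.4% identical over 652 bases.

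Syvn1, Sel1l and Derl2 had the smallest changes of the 6. Syvn1, which encodes the ubiquitin ligase HRD1, stood at 70.4, 72.0 and 71.3 CPM with DMSO and 73.3, 69.2 and 70.2 with rapamycin, a difference of -0.01 ± 0.029 that was not called (95% interval -0.06 to 0.05) and that was 0.06 with upper-quartile scaling (edgeR adjusted p = 0.079). It fell by 0.24 ± 0.030 with Torin1 and 0.22 ± 0.030 with RapaLink-1. Its window holds an ERSE 26 bases from the start. Sel1l, the adaptor of HRD1, stood at 124, 129 and 124 CPM with DMSO, 117, 121 and 119.9 with rapamycin, 114, 115 and 116 with Torin1 and 126, 124 and 125 with RapaLink-1. It fell by 0.08 ± 0.023 and 0.13 ± 0.023 with rapamycin and Torin1, neither called with upper-quartile scaling (-0.01 and 0.00). With RapaLink-1 it differed by -0.01 ± 0.023 and was called a rise of 0.13 with that scaling (edgeR adjusted p = 1.82e-07). Derl2 differed by 0.00 ± 0.032 with rapamycin and fell by 0.27 ± 0.033 with Torin1 and 0.20 ± 0.033 with RapaLink-1, the last not called with upper-quartile scaling (-0.06, edgeR adjusted p = 0.0619).

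Set directly against rapamycin, Torin1 left 30 of the 33 genes lower and 1 higher (33.2% and 34.2% of all genes), with a median of -0.53, and RapaLink-1 left 28 lower and 3 higher (33.0% and 32.0%), with a median of -0.50. Both comparisons use the same rapamycin libraries. With Torin1 the fall of Ero1l (-0.07 ± 0.031) lost its call in 7 of 13 alternative fits, and that of Canx in 2. With upper-quartile scaling the value of Ero1l was -0.0034 (edgeR adjusted p = 0.929). With RapaLink-1 the same scaling made Ero1l a called rise of 0.09. Further falls of Sdf2l1 (-1.90 ± 0.070 and -1.82 ± 0.069), Dnajb11 (-1.27 ± 0.029 and -1.21 ± 0.029), Calr (-1.23 ± 0.015 and -1.21 ± 0.015) and Hspa5 (-1.11 ± 0.015 and -0.92 ± 0.015) were among the largest, the values being for Torin1 and RapaLink-1. Dnajb9 rose further with both, by 0.24 ± 0.051 and 0.22 ± 0.052. Ern1 rose further with RapaLink-1, by 0.30 ± 0.044, while with Torin1 it differed by 0.06 ± 0.046 (edgeR adjusted p = 0.26), a difference called at 0.12 with upper-quartile scaling. Sel1l was higher by 0.07 ± 0.023 with RapaLink-1, a call lost without RapaLink-1 replicate 1 (edgeR adjusted p = 0.0815) or replicate 3 (edgeR adjusted p = 0.0527).

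RapaLink-1 and Torin1 were close to each other at these doses, with all 33 differences between -0.08 and 0.24 on the log2 scale. Of the 33, 13 were higher with RapaLink-1, 1 was lower and 19 were not called (16.7% and 16.4% of all genes were called higher and lower). Among the 13, Manf (0.07 ± 0.029) lost its call in 5 of 13 alternative fits and Ero1l (0.08 ± 0.031) in 2. With upper-quartile scaling Edem1 (0.09), Derl1 (0.07) and Sec11c (0.15) were also called higher. The largest differences were those of Ern1, 0.24 ± 0.044 (95% interval 0.15 to 0.33), Hspa5, 0.20 ± 0.016 (0.16 to 0.23), Xbp1, 0.18 ± 0.036 (0.11 to 0.25), and Hsp90b1, 0.15 ± 0.014 (0.12 to 0.18). Hspa5 was thus 114% of its Torin1 level with RapaLink-1, and the libraries of the 2 groups did not overlap. Pdia6 was the 1 gene lower with RapaLink-1, by 0.06 ± 0.017, a call lost without RapaLink-1 replicate 3 (-0.05, edgeR adjusted p = 0.0568). Calr differed by 0.01 ± 0.015 (95% interval -0.02 to 0.04) and Sdf2l1 by 0.08 ± 0.092 (-0.10 to 0.26), neither of them called. Over the 19 genes not called, the intervals, which are per gene and not adjusted for their number, ran from -0.15 to 0.26.

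**Figure D3:**
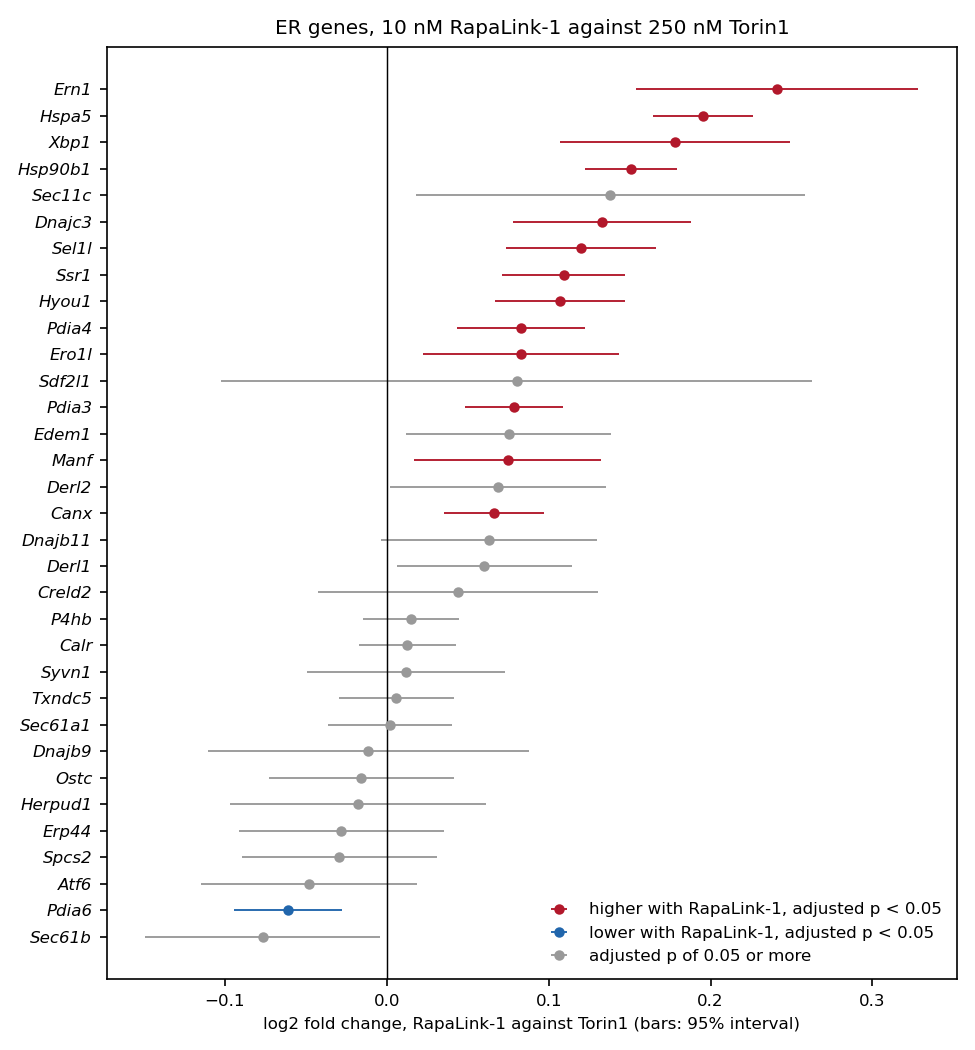
Log2 fold change (x axis) of 10 nM RapaLink-1 against 250 nM Torin1 for each ER gene (y axis), coloured by call, with 3 libraries a group. The 95% intervals come from the fit of all 12 libraries, with a spread moderated over all genes. All points lie between -0.08 and 0.24, with Ern1, Hspa5, Xbp1 and Hsp90b1 at the top and 13 of 33 genes called higher with RapaLink-1.

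Genes whose promoter window held an ERSE or ERSE-II had lower medians than the other ER genes, but 7 of these 10 were chaperones or co-chaperones, the role that fell most. The 10 matched members had medians of -0.35, -1.14 and -1.06 with rapamycin, Torin1 and RapaLink-1, with 9, 10 and 10 falling. The 16 members with a window and neither motif had medians of -0.13, -0.60 and -0.56, with 12, 14 and 12 falling and 2 rising. The 7 without a window had medians of -0.29, -0.94 and -0.80. Of the 16, Pdia3, Pdia4, Erp44, Sel1l and Derl2 held an ERSE with 1 mismatch in its last 5 bases. Their values with Torin1 were -0.96, -0.92, -0.34, -0.13 and -0.27. Among the 11 chaperones and co-chaperones alone the medians lay closer, with Torin1 at -1.30 for the 7 matched genes, -0.96 for the 2 with a window and neither motif and -1.15 for the 2 without a window. Both classes ranged widely with Torin1: the matched genes from -1.70 (Dnajb11) to -0.24 (Syvn1), the unmatched from -2.53 (Sdf2l1) to 0.62 (Dnajb9). Outside the set, 39 further genes had a match and 18 of them were tested, of which 6 rose and 5 fell with rapamycin, 7 and 7 with Torin1 and 8 and 7 with RapaLink-1, with medians of 0.07, 0.16 and 0.19. Of all tested genes, 27.5% rose and 32.2% fell with rapamycin, 39.8% and 38.3% with Torin1, and 38.7% and 37.9% with RapaLink-1. The near-even split of calls outside the set was thus close to that of all genes. The 18 include Derl3, Xlr3b, Tdrd9 and Rnf151, whose means over all libraries were only 0.23, 0.34, 0.42 and 1.61 CPM. These differences between classes were not tested.

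**Figure D4:**
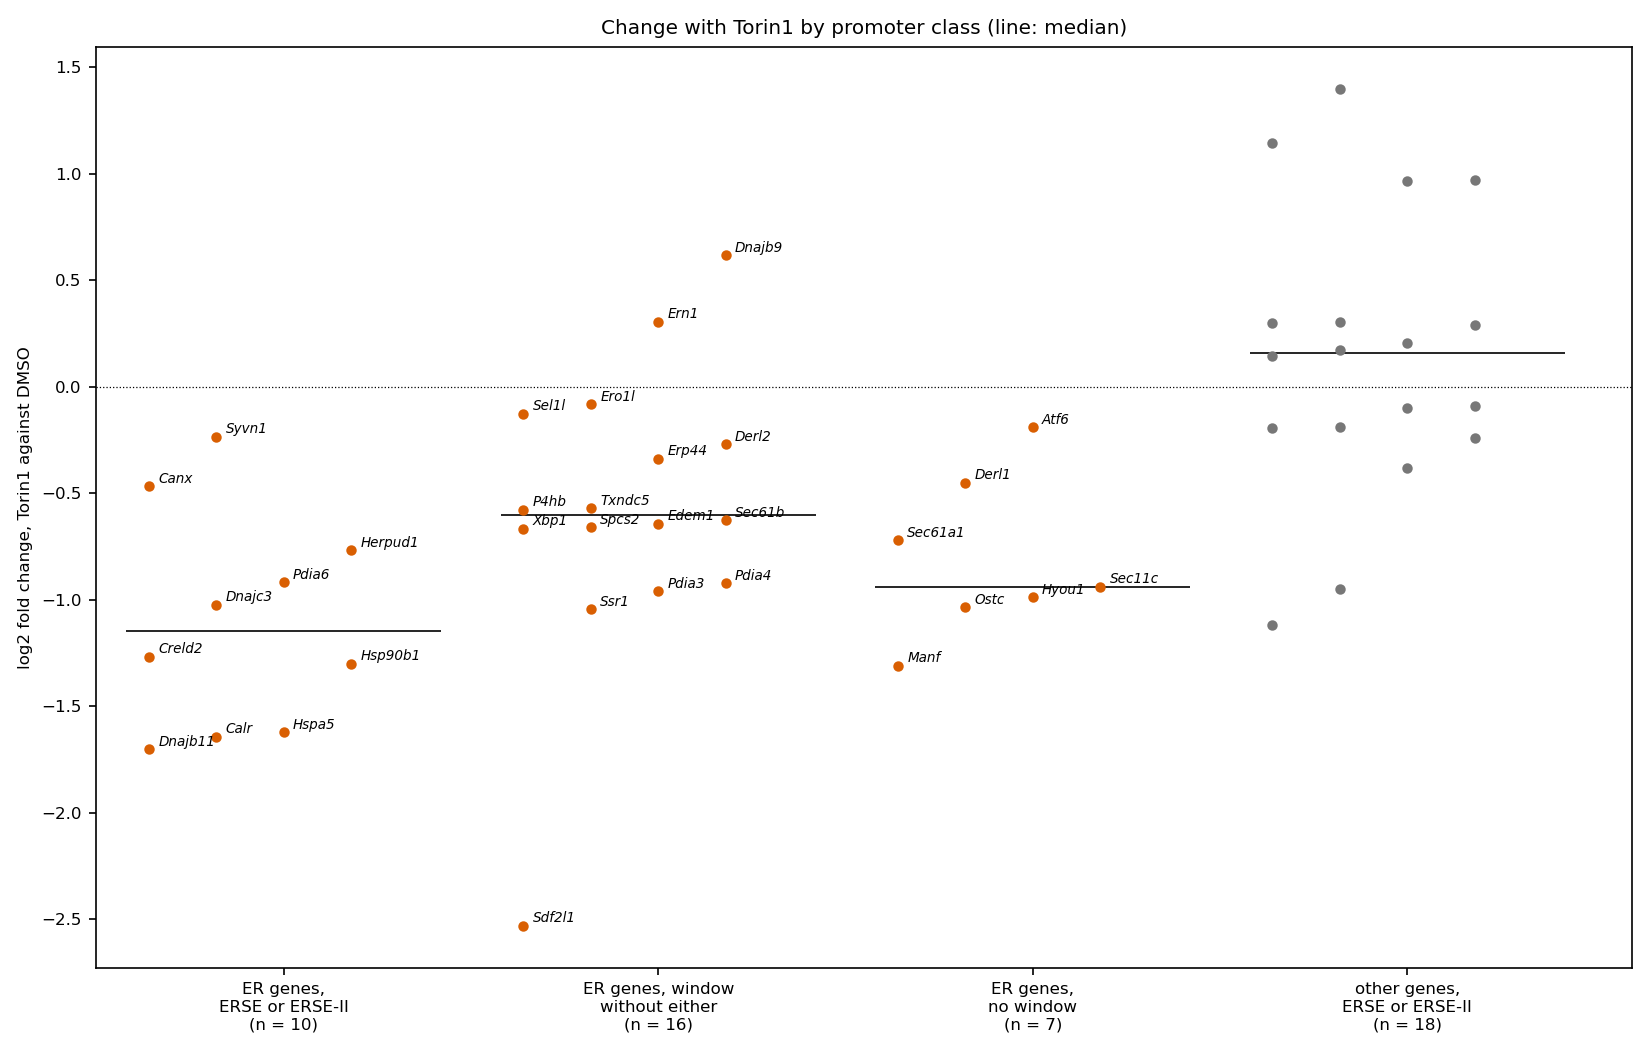
Log2 fold change with Torin1 against DMSO (y axis) of the ER genes by what their RefSeq promoter window holds, beside the 18 tested genes outside the set with an ERSE or ERSE-II; each point is a gene and each line a median. The medians are -1.14, -0.60, -0.94 and 0.16, and the classes overlap; the sign of Ero1l changed with upper-quartile scaling.

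By level per exonic length (FPKM, here from TMM-scaled libraries), the set was led in the DMSO group by Calr at 682 ± 1.66 (SD, n = 3), Hsp90b1 at 524 ± 2.59, P4hb at 365 ± 0.434, Pdia3 at 348 ± 1.03 and Hspa5 at 337 ± 1.10, and closed by Derl2 at 7.11 ± 0.214, Atf6 at 6.45 ± 0.12 and Ern1 at 2.67 ± 0.11. Most neighbours in this order did not overlap, but Sec61b, Ostc, Creld2 and Sec61a1, at 50.6 to 52.1, did, as did Ssr1 and Dnajb11, at 44.5 and 43.7, Syvn1, Ero1l and Sel1l, at 14.7 to 14.9, and Sec11c and Dnajb9, at 7.81 and 7.68. With Torin1 the order at the top changed to P4hb at 245 ± 1.11, Calr at 219 ± 4.50, Hsp90b1 at 213 ± 1.73 and Pdia3 at 179 ± 2.30, followed by Canx at 139 ± 2.65 and Hspa5 at 109 ± 1.64. The Torin1 libraries of Calr, at 213 to 221, and Hsp90b1, at 211 to 214, overlapped, so the order of these 2 genes was not resolved.

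Beyond the 33, other genes of the same pathways fell less uniformly. The members and these lists were chosen with earlier results of these data known, so this contrast is not an independent test. Of 37 other ER folding factors, 12 rose and 16 fell with rapamycin (15 and 13 with upper-quartile scaling), 7 and 28 with Torin1, and 7 and 26 with RapaLink-1. Of all tested genes, 27.5% rose and 32.2% fell with rapamycin, 39.8% and 38.3% with Torin1, and 38.7% and 37.9% with RapaLink-1. Serpinh1 (HSP47), the collagen chaperone, fell from 1100.1 to 1112 CPM by 0.54 ± 0.015, 1.17 ± 0.015 and 1.01 ± 0.015. Fkbp2, an ER prolyl isomerase, fell by 0.40 ± 0.037, 1.07 ± 0.040 and 1.06 ± 0.040, and Cnpy3, a co-chaperone of GRP94, by 0.27 ± 0.032, 0.98 ± 0.035 and 0.89 ± 0.034. In the other direction Qsox1, a sulfhydryl oxidase, rose by 0.19 ± 0.021, 0.91 ± 0.020 and 0.53 ± 0.021 with rapamycin, Torin1 and RapaLink-1, and Uggt2, a glucosyltransferase related to the folding sensor of the calnexin cycle, by 0.21 ± 0.028, 0.70 ± 0.026 and 0.78 ± 0.026.

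Of 31 tested genes of translocation and N-glycosylation, 21 fell and 3 rose with rapamycin (17 and 7 with upper-quartile scaling), 27 and 2 with Torin1 (24 and 5) and 27 and 1 with RapaLink-1 (24 and 7). The shares of all tested genes that fell and rose were 32.2% and 27.5%, 38.3% and 39.8%, and 37.9% and 38.7%. Rpn1, a core subunit of the oligosaccharyltransferase, fell by 0.41 ± 0.018, 1.16 ± 0.019 and 1.18 ± 0.019 from 341 to 348 CPM, and its partner Rpn2 by 0.30 ± 0.017, 0.78 ± 0.017 and 0.74 ± 0.017. Ssr2, which pairs with the product of Ssr1, fell by 0.23 ± 0.021, 0.85 ± 0.022 and 0.89 ± 0.022. Sec61a2, a second gene for the channel's pore subunit, rose with Torin1 and RapaLink-1, by 0.26 ± 0.035 and 0.25 ± 0.035.

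The 29 other ERAD genes were mixed, with 12 rising and 13 falling with rapamycin, 10 and 17 with Torin1 (12 and 11 with upper-quartile scaling) and 10 and 15 with RapaLink-1 (14 and 10). Without DMSO replicate 1, 7 of them rose with rapamycin. A mixed split is also that of all tested genes. Of these, 27.5% rose and 32.2% fell with rapamycin, 39.8% and 38.3% with Torin1, and 38.7% and 37.9% with RapaLink-1. Vcp, the ATPase that pulls proteins from the ER membrane, fell by 0.41 ± 0.015, 1.10 ± 0.015 and 1.06 ± 0.015 from 1042 to 1057 CPM, and its cofactor gene Nploc4 by 0.41 ± 0.021, 0.84 ± 0.022 and 0.76 ± 0.021. Os9, a lectin that delivers glycoproteins to HRD1, rose by 0.23 ± 0.025, 0.70 ± 0.024 and 0.69 ± 0.024, and Herpud2, the relative of Herpud1, by 0.29 ± 0.039, 0.69 ± 0.037 and 0.70 ± 0.037.

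Of 19 other genes of the stress branches, 4 rose and 10 fell with rapamycin, 4 and 11 with Torin1, and 5 and 10 with RapaLink-1. With upper-quartile scaling these splits were 9 and 9, 7 and 10, and 9 and 8. With TMM scaling, the shares of all tested genes that rose and fell were 27.5% and 32.2%, 39.8% and 38.3%, and 38.7% and 37.9%. At least 2-fold falls were met by 1, 4 and 3 of the 19 (0.528%, 6.35% and 5.77% of all genes). The lowest values, -1.69, -3.48 and -2.98, fell outside the rule for naming genes, so the genes named below do not mark the extent of the falls. Atf4, the transcription factor downstream of PERK, fell from 297, 304 and 299 CPM to 229, 226 and 226 with rapamycin, 133, 129 and 124 with Torin1 and 128, 124 and 127 with RapaLink-1. The falls were 0.40 ± 0.019, 1.22 ± 0.020 and 1.24 ± 0.020. Atf6b, the relative of Atf6, fell by 0.29 ± 0.027, 1.13 ± 0.030 and 1.14 ± 0.030, beside the -0.19 and -0.24 of Atf6 with Torin1 and RapaLink-1. Ddit3 (CHOP), a target of ATF4, fell by 0.49 ± 0.046, 0.62 ± 0.047 and 0.45 ± 0.046.

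Eif2ak3, which encodes PERK, differed by 0.06 ± 0.042 with rapamycin, not called but called at 0.13 with upper-quartile scaling, and fell by 0.34 ± 0.045 and 0.30 ± 0.045 with the other compounds. Ppp1r15a (GADD34), the phosphatase subunit that reverses PERK's mark, rose from 12.7, 11.9 and 13.6 CPM to 20.7, 20.8 and 19.7 with Torin1 and 23.7, 22.8 and 23.0 with RapaLink-1, by 0.68 ± 0.056 and 0.86 ± 0.055. With rapamycin it stood at 13.8, 13.0 and 13.6 CPM, a difference of 0.08 ± 0.061 that upper-quartile scaling made a called rise of 0.15. Ppp1r15b, its constitutive counterpart, fell by 0.29 ± 0.026, 0.78 ± 0.027 and 0.82 ± 0.027.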

How the data were processed

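RNA was sequenced from mouse embryonic fibroblasts in 12 libraries, 3 for each of DMSO and 3 compounds, and grouped by the treatment label. The deposited files hold raw counts of reads for each gene, produced by the authors using featureCounts according to what the file headers record, 1 file per library. Per the submitters' processing notes, tools included Trimmomatic 0.36, STAR 2.5.2b, Subread 1.5.2 and DESeq2, on GRCm38. Overlapping genes and near copies are named as uncertain, because strand setting, multi-mapping rule and annotation version were not given in the sources used here. Symbols came from GENCODE M21, and all 186 listed symbols matched; 3 of the 39 genes with a promoter match outside the set had no ID there.

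Genes were filtered with filterByExpr (15917 left), scaled by TMM and tested with edgeR 4.0.16 in R 4.3.3. The robust quasi-likelihood model held all 12 libraries and a term for group (8 residual degrees of freedom), the 6 pairs of groups were two-sided contrasts, and p-values were adjusted by Benjamini-Hochberg over the tested genes. The prior count of log-CPM was 2. With 3 against 3 libraries an exact permutation test cannot go under 0.1. The script was checked on simulated counts. Pairs of libraries within a group differed beyond sampling noise (chi-square over its degrees of freedom 1.33 to 1.99). The common biological coefficient of variation, the spread between libraries beyond counting noise, was only 1.48%. Whether this small spread is technical cannot be told from the labels. Total counts were 30075870 to 39423703 per library. Counting error was small for members with many counts and larger for those with few. The lowest was Sdf2l1, with 156 counts in a library.

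All 33 members are described; of other pathway genes, up to 3 with the largest called rises and 3 with the largest called falls per list and comparison could be named, at a mean of at least 10 CPM with no overlap between libraries, plus Atf4, Ddit3, Eif2ak3, Atf6b and Ppp1r15a. The members and lists were chosen with earlier results of these data known. Near copies were found with blastn 2.17.0 (at least 95% identity over 200 bases). Alternatives were DESeq2 1.42.0, its size factors in edgeR, upper-quartile scaling, no filter, a filter at a mean of 5 CPM, a replicate block, only the 6 libraries compared, and each library left out.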

Additional observations from a re-analysis of the deposited data

How the results depend on the processing

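Of the 198 values (33 genes in 6 comparisons), 175 kept their direction and side of the threshold with upper-quartile scaling, 182 with the filter at a mean of 5 CPM, 190 with only the 6 libraries compared, 192 with DESeq2 size factors in edgeR, 194 without a filter and 195 with DESeq2. Leaving out each library kept 1136 of 1188. Among the members, the largest value whose call was lost was the -0.20 of Derl2 with RapaLink-1 with upper-quartile scaling. The lowest count of a member in a library was 156, for Sdf2l1. Where no value shows it, the cause was not tested.

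The replicate numbers did not pair the libraries: same-numbered libraries had deviations correlated at -0.039 to 0.059, and 4 of 12 libraries correlated best with their own number. A fit with a replicate block kept 197 of the 198 values, the other being Sel1l with Torin1 against rapamycin, called at -0.05 (edgeR adjusted p = 0.0493).

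With upper-quartile scaling, 4 ER genes rose with RapaLink-1, 5 with RapaLink-1 against rapamycin and 2 with Torin1 against rapamycin, and with the 5 CPM filter 4 rose with RapaLink-1. Among other ERAD genes 11 fell with Torin1 with upper-quartile scaling. Other stress branch genes that rose numbered 9, 7 and 9 with rapamycin, Torin1 and RapaLink-1 with upper-quartile scaling, and 9, 7 and 8 with the 5 CPM filter. Other translocation and N-glycosylation genes that rose numbered 7, 5 and 7 in that order with upper-quartile scaling, 7 with rapamycin and 4 with RapaLink-1 with the 5 CPM filter, and 7 and 2 with only the 6 libraries compared. With TMM library sizes the share of counts of all members was 1.27% (DMSO), 1.00% (rapamycin) and 0.658% (RapaLink-1), and of chaperones 0.729%, 0.534% and 0.323%.

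These values changed sign. With upper-quartile scaling: Canx 0.0046 and Sel1l 0.014 (Torin1 against rapamycin), Ero1l 0.044 (Torin1), Ero1l 0.047, Pdia6 0.0079, Syvn1 0.057 and Txndc5 0.022 (rapamycin), Sel1l 0.13 (RapaLink-1) and Atf6b 0.0057 (RapaLink-1 against Torin1). With the 5 CPM filter: Ero1l 0.0087 (Torin1), Ero1l 0.042, Pdia6 0.0032, Syvn1 0.053 and Txndc5 0.017 (rapamycin), Sel1l 0.078 (RapaLink-1) and Sec61a1 -0.0040 (RapaLink-1 against Torin1). With only the 6 libraries compared: Ero1l 0.0077 and Syvn1 0.018 (rapamycin) and Sel1l 0.0035 (RapaLink-1). With DESeq2 size factors: Derl2 -0.0061 (rapamycin), Ero1l -0.0054 (RapaLink-1) and Atf6b 0.0049 (RapaLink-1 against Torin1). With DESeq2: -0.0065, -0.0049 and 0.0046 for the same. Without a filter: Derl2 -0.0092 (rapamycin) and Ero1l -0.015 (RapaLink-1).

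Leaving out each library gave 0 to 1 falls of ER genes with RapaLink-1 against Torin1, 6 (without RapaLink-1 replicate 1) to 9 falls of other ER folding factors and 4 (without RapaLink-1 replicate 2) to 7 rises of other ERAD genes in the same comparison, and 7 (without DMSO replicate 1) to 10 rises of other ERAD genes with rapamycin. Ranges that crossed 0, none of them called in the full fit, were for RapaLink-1 against Torin1 -0.048 to 0.0025 (Atf4), -0.033 to 0.036 (Atf6b), -0.047 to 0.023 (Dnajb9), -0.039 to 0.012 (Herpud1), -0.038 to 0.019 (Ostc), -0.017 to 0.16 (Sdf2l1) and -0.0045 to 0.021 (Sec61a1). For RapaLink-1 against rapamycin they were -0.011 to 0.025 (Canx) and -0.024 to 0.029 (Ero1l), for RapaLink-1 -0.027 to 0.013 (Ero1l) and -0.019 to 0.0081 (Sel1l), and for rapamycin -0.022 to 0.021 (Derl2) and -0.031 to 0.0095 (Syvn1).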
